A study of Mus musculus with 4 samples.

Results

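The contacts described here are those between different autosomes of the mouse, counted as Hi-C read pairs whose ends lie on 2 chromosomes. Of all pairs of the 19 autosomes, those in which both chromosomes belong to the set 12, 15, 16, 18 and 19 were left out, 10 pairs. The pairs taken were the 70 with 1 chromosome of that set and the 91 with none. The cells were of the E14 line, which are male embryonic stem cells of the mouse, and Hi-C libraries came from 2 biological replicates in each of 2 culture conditions. Serum cells grew in GMEM medium with 15% fetal calf serum and LIF at 1000 U/mL. 2i cells grew without serum for 14 days in a medium with the same concentration of LIF, 1 μM of the MEK inhibitor PD0325901 and 3 μM of the GSK3 inhibitor CHIR99021.

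In an interphase nucleus each chromosome fills a territory of its own, and ligation between chromosomes samples the surfaces where territories meet and mix. Chromosomes rich in genes and in G and C bases tend to lie toward the nuclear interior, and those poor in both toward the periphery. Mouse autosomes carry the centromere at one end, and some of them also carry ribosomal RNA genes, around which nucleoli form.

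Trans pairs, those joining different chromosomes, made up 13.9% and 13.9% of the unique read pairs from serum and 19.1% and 13.5% of those from 2i. The chosen pairs held 15498446 and 42825637 read pairs in replicates 1 and 2 of serum, and 75653446 and 29657028 in replicates 1 and 2 of 2i. The lowest count of any of them was 47101, in serum replicate 1, where the counting error of a single pair reached at most 0.461%. Each count was divided by an expected count that keeps the trans total of each autosome over all autosome pairs of that library, left-out pairs included, so that chromosomes with more trans contacts in all do not count as preferring each other. The result is given as the percent by which a pair lay above or below expectation. Because each chromosome's total is kept, pairs of 1 chromosome cannot all lie above expectation.

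Departures from expectation were small and repeatable. Over the chosen pairs, values reached from -7.90 to 7.00 percent and from -6.58 to 6.20 percent in replicates 1 and 2 of serum, and from -7.92 to 7.99 and from -11.4 to 11.02 percent in replicates 1 and 2 of 2i. The SD over pairs of the mean of the 4 libraries was 2.49 percentage points, and the SD between replicates of the same pair was 0.720. In the mean of the libraries, 104 pairs lay within 2 percent of expectation and 8 lay more than 5 percent from it. Across these pairs, which share chromosomes and are not independent, log2 observed over expected correlated at r = 0.956 for the pair of serum libraries and at 0.940 for the pair of 2i libraries. Between a serum and a 2i library r was 0.740 to 0.799.

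The SD of log2 observed over expected over the pairs was 0.036 and 0.032 for serum and 0.038 and 0.048 for 2i. The 2i values exceeded those of serum, and 2i replicate 1 lay closer to serum replicate 1 than to the other 2i library (exact two-sided permutation, p = 0.333, the minimum for 4 libraries in 2 groups). The library with the widest spread, 2i replicate 2, had the lowest trans share, and its 23.2% of duplicate read pairs lay between the 16.9% of 2i replicate 1 and the 55.4% of serum replicate 1. The part of these library properties in the spread was not tested. The difference of 2i from serum in the SD, 0.00826, was 0.00329 without 2i replicate 2 and 0.0132 without 2i replicate 1.

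Which chromosomes met more or less often than expected in every library was read from the side of expectation and from a test. Of the chosen pairs, 47 lay above expectation in all 4 libraries, 67 below in all 4, and 47 on both sides. At an adjusted p under 0.05 (quasi-likelihood test of edgeR, Benjamini-Hochberg over all autosome pairs), 42 were called above, where 29.2% of all autosome pairs were, and 62 were called below, where 37.4% of all were. The all-pair shares include these same pairs together with the 10 left out, which lay 6.51% above expectation on average and take part in the fit of the expected counts.

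The highest of the chosen pairs was that of chromosomes 11 and 15. It lay 7.00% and 5.88% above expectation in the libraries from serum and 7.99% and 10.999% above in those from 2i (quasi-likelihood test of edgeR, Benjamini-Hochberg, adjusted p = 6.46e-06). Chromosome 11 is the autosome with the highest GC content, 43.8%, whereas chromosome 15 has 42.0% and lies in neither end of that order. Next came chromosomes 8 and 14, at 6.33% and 6.20% above expectation in the libraries from serum and 7.53% and 5.93% above in those from 2i, where the ranges of the conditions overlapped. Chromosomes 9 and 11 lay 4.77% and 3.34% above expectation in the libraries from serum and 4.42% and 7.58% above in those from 2i, again with overlapping conditions. These 3 pairs were above expectation in each library, and only for the first of them did the 2i values both exceed the serum values.

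Pairs of long chromosomes were also among the 6 highest. Chromosomes 1 and 3, of 197 and 160 Mb, lay 4.52% and 4.53% above expectation in the libraries from serum and 4.38% and 6.40% above in those from 2i. Chromosomes 2 and 4 lay 5.21% and 4.70% above expectation in the libraries from serum and 3.49% and 4.06% above in those from 2i. The remaining pair of the 6 joined short chromosomes rich in genes, 17 and 19, at 1.83% and 4.08% above expectation in the libraries from serum and 4.83% and 7.10% above in those from 2i. For these pairs the adjusted p against expectation was 1.41e-05, 1.65e-05 and 2.11e-04 in that order (quasi-likelihood test of edgeR, Benjamini-Hochberg), and the direction was shared by 4 of 4 libraries. With expected counts as products of totals, the pair of 17 and 19 fell from 4.46 to 0.994% and was no longer called, and that of 2 and 4 rose from 4.36 to 7.54%. With expected counts over the chosen pairs alone, 17 and 19 rose to 6.98%.

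Of the 6 lowest pairs, 4 included chromosome 19. Chromosomes 1 and 19, the longest and the shortest autosome, lay 7.03% and 6.58% below expectation in the libraries from serum and 7.92% and 11.4% below in those from 2i (quasi-likelihood test of edgeR, Benjamini-Hochberg, adjusted p = 1.41e-05). Chromosomes 11 and 12, of nearly equal length, lay 7.90% and 6.23% below expectation in the libraries from serum and 6.74% and 9.99% below in those from 2i (same test of edgeR, Benjamini-Hochberg adjusted p = 1.65e-05). Chromosome 12 has 5.99 protein-coding genes per Mb and chromosome 11 has 13.9. The other 3 pairs with chromosome 19 were those with 3, 13 and 2. With chromosome 3 it lay 4.12% and 4.24% below expectation in the libraries from serum and 5.84% and 8.59% below in those from 2i. With chromosome 13 it lay 3.87% and 3.90% below expectation in the libraries from serum and 5.80% and 7.45% below in those from 2i, and with chromosome 2 4.36% and 4.08% below expectation in the libraries from serum and 6.01% and 5.10% below in those from 2i. In each of these 3 pairs the 2i values were both lower than the serum values. The pair of chromosomes 1 and 11, between those of 19 with 13 and with 2 in order, lay 4.51% and 3.96% below expectation in the libraries from serum and 4.44% and 7.55% below in those from 2i, and its conditions overlapped. With expected counts over the chosen pairs alone, chromosome 19 kept its side but came nearer to expectation, at -3.42% with chromosome 3, -2.97% with 13 and -2.60% with 2, from fitted values of -5.70, -5.26 and -4.89%. With products of totals, chromosomes 13 and 19 lay farther from it, at -8.19%, and chromosomes 1 and 11 nearer, at -2.60% from -5.11%.

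Length ordered these contacts in every library. The 6 longest autosomes are 1, 2, 3, 4, 5 and 7, and the 6 shortest are 19, 18, 17, 16, 15 and 13. Of the short ones, 19, 18, 16 and 15 also belong to the set whose pairs with each other were left out. Short length and membership of that set thus overlap. The 15 pairs among the longest lay on average 1.83% and 1.73% above expectation in the libraries from serum and 1.16% and 1.64% above in those from 2i. The 36 pairs joining a long with a short chromosome lay 1.85% and 1.79% below expectation in the libraries from serum and 1.57% and 1.98% below in those from 2i. The 9 chosen pairs among the shortest lay 0.453% and 0.528% above expectation in the libraries from serum and 0.159% and 0.565% above in those from 2i. This side depends on the expected counts: as products of totals they put the mean of these 9 pairs at -2.03%. Expected counts over the chosen pairs alone put it at 1.57%, where the main ones gave 0.426%. Another 6 pairs of short chromosomes are among those left out. The other class means moved as well. Over all libraries, the long pairs went from 1.59% to 3.49% with products of totals. The mixed pairs went from -1.80% to -1.04% with expected counts over the chosen pairs alone. Pairs within a class thus lay above pairs across classes in all libraries: 10 of 15 long pairs were above expectation in all 4, and 23 of 36 mixed pairs below.

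The length contrast, the excess of pairs within the 2 classes over pairs joining them, was 3.05 and 2.96 percent in the libraries from serum and 2.26 and 3.14 percent in those from 2i. The conditions overlapped, at 3.01 ± 0.0602 (SD, n = 2) for serum against 2.70 ± 0.620 (SD, n = 2) for 2i (exact two-sided permutation, p = 1). With 5 and 9 chromosomes at each end, the contrast over all libraries went from 2.85 to 4.80 and 1.43 percent, and its difference of 2i from serum turned from -0.307 to 0.966 and 0.587 percentage points. Likeness in length, the product of the 2 chromosomes' standardized log10 lengths, correlated with log2 observed over expected at r = 0.472 and 0.540 for serum libraries, against 0.491 and 0.498 for 2i libraries over the 70 and 91 chosen pairs, which share chromosomes, with rho = 0.397 and 0.456 in serum and 0.408 and 0.395 in 2i. Over all libraries r fell from 0.500 to 0.381 with expected counts over the chosen pairs alone. With each chromosome left out in turn, r with the mean of the libraries was lowest without the pairs of chromosome 19, at 0.437. It was highest without those of chromosome 11, at 0.617.

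GC content ordered the pairs as well, more widely in 2i. The 6 autosomes of highest GC content, 11, 7, 19, 9, 17 and 5, have 42.5 to 43.8%, and the 6 of lowest, 3, 16, 1, 14, 10 and 6, have 40.5 to 41.4%. Pairs joining the classes, 35 in number, lay 0.956% and 0.985% below expectation in the libraries from serum and 1.86% and 2.58% below in those from 2i. Pairs within the GC-rich class lay 0.0220% below and 0.390% above expectation in the libraries from serum and 1.61% above and 2.51% above in those from 2i. Pairs within the GC-poor class lay 0.0283% and 0.153% above expectation in the libraries from serum and 0.873% and 1.52% above in those from 2i. In serum both classes were thus near expectation, and in both 2i libraries both lay above it. These levels depend on the expected counts. Over all libraries, the GC-rich mean of 1.12% was 1.71% with expected counts over the chosen pairs alone. The GC-poor mean of 0.642% was 0.180% with products of totals.

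The GC contrast was 0.969 and 1.27 percent in the libraries from serum and 3.16 and 4.72 percent in those from 2i. Its average of 1.12 ± 0.212 (SD, n = 2) for serum stood against 3.94 ± 1.10 (SD, n = 2) for 2i, without overlap (exact two-sided permutation, p = 0.333, the smallest possible). With 5 and 9 chromosomes at each end, the difference of 2i from serum went from 2.82 to 3.37 and 1.28 percentage points. Likeness in GC content, the product of standardized GC contents, correlated with log2 observed over expected at r = 0.199 and 0.250 for serum libraries, against 0.423 and 0.491 for 2i libraries over the chosen pairs, with rho = 0.173 and 0.249 in serum and 0.448 and 0.496 in 2i. Over all libraries r fell from 0.341 to 0.203 with minus the absolute difference as the measure. The change from serum to 2i correlated with the product at r = 0.466. The difference of 2i replicate 2 from 2i replicate 1 did so at r = 0.418, nearly as strongly, and that of serum replicate 2 from serum replicate 1 at r = 0.0813. The relation to GC content varied between 2 libraries of 1 condition as well as between conditions.

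Leaving out the pairs of 1 chromosome lowered r with GC likeness most for chromosome 11, to 0.117 and 0.187 in serum and 0.323 and 0.390 in 2i. The densities of CpG and of GATC were taken up after the data were seen. CpG density gave r = 0.296 and 0.346 for serum libraries, against 0.503 and 0.602 for 2i libraries, and correlated less with the change from serum to 2i (0.499) than with the difference between the 2i replicates (0.548). The density of GATC, the site of the enzyme that cut the chromatin, DpnII, gave r = 0.0165 and 0.0590 for serum libraries, against -0.0111 and 0.0101 for 2i libraries, all near 0.

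Gene density also put pairs of like chromosomes above unlike ones. It and GC content correlate at r = 0.850 over the 19 autosomes, and their parts cannot be told apart here. The 6 autosomes with most protein-coding genes per Mb are 7, 11, 19, 17, 9 and 2, and those with fewest are 18, 12, 1, 3, 16 and 13. Pairs joining the classes lay 1.73% and 1.65% below expectation in the libraries from serum and 2.04% and 2.58% below in those from 2i, and 20 of these 33 were below expectation in all 4. Pairs within the gene-rich class lay 0.0197% and 0.335% above expectation in the libraries from serum and 1.05% and 1.67% above in those from 2i, and pairs within the gene-poor class 0.438% and 0.497% above expectation in the libraries from serum and 0.979% and 1.47% above in those from 2i. All libraries placed pairs of like gene density above pairs of unlike density.

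The gene density contrast was 2.00 and 2.10 percent in the libraries from serum and 3.12 and 4.25 percent in those from 2i. Its average of 2.05 ± 0.0733 (SD, n = 2) for serum stood against 3.69 ± 0.799 (SD, n = 2) for 2i, again without overlap (exact two-sided permutation, p = 0.333, the smallest possible). With 5 and 9 chromosomes at each end, the contrast over all libraries went from 2.87 to 3.91 and 1.44 percent. Its difference of 2i from serum went from 1.64 to 2.51 and 0.911 percentage points. That difference was 1.07 without 2i replicate 2 and 2.20 without 2i replicate 1. Likeness in gene density correlated with log2 observed over expected at r = 0.168 and 0.237 for serum libraries, against 0.344 and 0.400 for 2i libraries, with rho = 0.155 and 0.208 in serum and 0.311 and 0.359 in 2i. The difference in r between 2i and serum, 0.169, was 0.0395 when all annotated genes were counted. The change from serum to 2i correlated with likeness in gene density at r = 0.354, and the difference of 2i replicate 2 from 2i replicate 1 at 0.341. With the product as the measure, r and rho for gene density lay below those for GC content in every library. With minus the absolute difference as the measure, r for gene density (0.171, 0.210, 0.290 and 0.306) exceeded r for GC content (0.103, 0.151, 0.246 and 0.311) in all but 2i replicate 2. In serum the gene density contrast also exceeded the GC contrast.

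A linear description by the 3 kinds of likeness together took up 26.3% and 36.1% of the variance over pairs for serum and 42.2% and 49.1% for 2i. The pairs farthest above it in the mean of the libraries were chromosomes 11 and 15, by 8.23%, chromosomes 8 and 14, by 7.00%, and chromosomes 8 and 15, by 4.33%. Farthest below it were chromosomes 11 and 12, by 6.58%, chromosomes 13 and 19, by 5.29%, and chromosomes 8 and 12, by 4.05%. Chromosomes 8 and 15 lay 6.46% and 3.98% above expectation in the libraries from serum and 2.20% and 3.44% above in those from 2i, and chromosomes 8 and 12 5.83% and 4.37% below expectation in the libraries from serum and 2.84% and 3.91% below in those from 2i. Chromosomes 8, 11, 12 and 15 recurred among these 6 pairs, with 8 and 11 both high with 15 and both low with 12.

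Single chromosomes differed in how unevenly they met their partners; those described were picked after their values were seen. Chromosome 11 had the widest spread, an SD of 4.00 percentage points over 18 partners, from 7.95% above expectation with chromosome 15 to 7.73% below with chromosome 12. Chromosome 7 had the narrowest, 0.711 percentage points, from 1.36% above with chromosome 1 to 1.86% below with chromosome 18, although its GC content and gene density are among the highest. Chromosome 1 was above expectation in all 4 libraries with 10 of 18 partners and below with 7. Chromosome 16 was above in all 4 with 0 of its 14 partners and below with 9, but its mean over them turned from -1.24% to 0.0804% with expected counts over the chosen pairs alone.

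The observed over expected values of a chromosome could also be set against the length of its partners. Over partners, with the mean of each condition, r with partner length was 0.859 in serum and 0.768 in 2i for chromosome 1 and 0.718 and 0.825 for chromosome 2. It was -0.788 and -0.566 for chromosome 19 and -0.787 and -0.699 for chromosome 15. Chromosomes 1 and 2 thus met long partners more, and 19 and 15 met them less, in both conditions. Not all chromosomes of like length did so: among the short ones, chromosome 13 had 0.240 and 0.661 and chromosome 16 -0.0662 and -0.0454, and the long chromosome 7 had 0.665 in serum and 0.189 in 2i. Chromosome 12, next to 13 in length, had 0.758 and 0.584. The values of chromosome 7 varied little over its partners, with an SD of 0.711 percentage points in the mean of the libraries.

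Against partner GC content, chromosome 19 had r = 0.324 and 0.400 for serum and 0.820 and 0.882 for 2i. Chromosome 7 went from -0.524 and -0.122 in serum to 0.367 and 0.497 in 2i. Chromosome 12, poor in genes, had -0.514 and -0.560 in serum and -0.864 and -0.847 in 2i. For chromosomes 7 and 19 the 2i values exceeded those of serum, and for chromosome 12 they were lower. Not every GC-rich chromosome went the way of 7 and 19: chromosome 17 had 0.539 and 0.587 in serum and lower values, 0.433 and 0.462, in 2i. These correlations rest on 14 or 18 partners in the same libraries and are descriptions. Those of chromosome 7 rest on values that varied little over its partners. In the mean of the libraries their SD was 0.711 percentage points, near the 0.720 between replicates of the same pair.

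The pattern was also summarized by eigenvectors of the log2 matrix of all autosome pairs, averaged over libraries; chromosomes with loadings of like sign meet more along an eigenvector of positive eigenvalue. The first, with 40.7% of the sum of squared eigenvalues, set chromosomes 19, 18 and 16, with loadings of 0.556, 0.451 and 0.426, against 2, 1 and 8, with -0.169, -0.167 and -0.146. These highest loadings are those of chromosomes whose pairs with each other were left out of the chosen pairs but take part here. In the mean of the libraries, chromosomes 18 and 19 lay 14.95% above expectation, 16 and 19 13.9% and 16 and 18 8.82%. This first eigenvector thus does not describe the chosen pairs alone. Over the 19 autosomes its loadings correlated with log10 length at r = -0.785 and rho = -0.812, and with GC content at r = -0.0898 and rho = 0.0561. The next, with 25.2%, set chromosomes 11, 15 and 17, with 0.439, 0.423 and 0.254, against 1, 12 and 3, with -0.333, -0.320 and -0.284. The loadings of this eigenvector correlated with GC content at r = 0.618 and rho = 0.572, and with log10 length at r = -0.531 and rho = -0.540. Chromosome 15 loaded 0.00307 on the first, apart from the other chromosomes of the left-out set. Length alone did not order these loadings: chromosome 12, of 121 Mb, loaded 0.389 on the first, and the short chromosomes 17 and 13 loaded 0.0575 and -0.0768.

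The 70 chosen pairs with 1 chromosome of the set 12, 15, 16, 18 and 19 lay on average 1.19% and 1.09% below expectation in the libraries from serum and 1.39% and 1.14% below in those from 2i. The 91 pairs with none of them lay 0.252% and 0.234% above expectation in the libraries from serum and 0.325% and 0.217% above in those from 2i. The sides of both means depend on how the expected counts are made: with expected counts fitted over the chosen pairs alone, the first mean was 0.0463% and the second -0.0567%. With the main expected counts the 5 chromosomes were not alike. Over its 14 partners outside the set, chromosome 19 lay 2.44% and 2.07% below expectation in the libraries from serum and 2.60% and 2.49% below in those from 2i. Chromosome 15 lay 0.629% above and 0.331% above expectation in the libraries from serum and 0.180% below and 0.231% above in those from 2i. With expected counts over the chosen pairs alone, the mean deficit of chromosome 19 was nearly gone (-0.0448%) and chromosome 15 averaged 0.0603%. The means of the 5 chromosomes then lay between -0.104% and 0.240%. With products of totals chromosome 15 averaged -0.583% and chromosome 19 -4.43%. For the 70 pairs the conditions overlapped (exact two-sided permutation, p = 0.667).

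The HoxD, HoxA, HoxB and HoxC gene clusters, loci the study is about, lie on chromosomes 2, 6, 11 and 15, and a count for whole chromosomes does not resolve them. The 6 pairs among these chromosomes averaged 0.550% and 0.0116% above expectation in the libraries from serum and 0.0633% and 0.00749% below it in those from 2i (exact two-sided permutation, p = 0.333, the smallest possible). The side of their mean over all libraries, 0.123%, depends on the setting: it was -0.134% with expected counts over the chosen pairs alone, 1.25% with products of totals and -0.0119% without serum replicate 1. The 6 pairs had no common direction. Beside chromosomes 11 and 15, the highest pair, chromosomes 2 and 6 lay 1.39% and 1.30% above expectation in the libraries from serum and 2.82% and 1.81% above in those from 2i. Chromosomes 2 and 15 lay 3.67% and 4.01% below expectation in the libraries from serum and 4.05% and 4.64% below in those from 2i, chromosomes 6 and 15 2.85% and 2.31% below expectation in the libraries from serum and 2.66% and 3.68% below in those from 2i, and chromosomes 6 and 11 0.774% and 1.78% below expectation in the libraries from serum and 2.64% and 3.52% below in those from 2i. Chromosomes 2 and 11 lay 2.59% and 1.30% above expectation in the libraries from serum and 1.34% and 0.196% below it in those from 2i. None of the 6 was called changed in 2i: the adjusted p was 0.0587 to 0.451 (quasi-likelihood test of edgeR, Benjamini-Hochberg), and the conditions overlapped for chromosomes 6 and 15 alone.

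Between the conditions, 8 of the chosen pairs were called higher in 2i, where 5.26% of all autosome pairs were, and 8 were called lower, where 4.68% were (quasi-likelihood test of edgeR, Benjamini-Hochberg, adjusted p under 0.05). At an unadjusted p under 0.05 there were 60. The conditions did not overlap in 102 of the chosen pairs, and in 63.2% of all autosome pairs. The count of called pairs rests on few libraries: it was 1 without serum replicate 1, 2 without serum replicate 2, 12 without 2i replicate 1 and 3 without 2i replicate 2. It was also 1 with the dispersion that edgeR estimates, 25 with DESeq2 and 1 with the replicate number as a block. The even split of directions varied too. With expected counts over all chromosome pairs, 8 were called higher and 19 lower, and with TMM on raw counts 31 higher and 5 lower. The pair called with the estimated dispersion, with the block and without serum replicate 1 was that of chromosomes 14 and 19.

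The 16 called pairs held 6 of the 18 chosen pairs of chromosome 14, 5 of the 14 of chromosome 19 and 4 of the 18 of chromosome 11. These chromosomes were picked after the calls were seen. Chromosomes 4, 6, 13, 16 and 18 had 0. Because each chromosome's total is kept, a rise of 1 pair is tied to falls among other pairs of its chromosomes. Calls that share a chromosome are thus not independent. The pair with the largest change was that of chromosomes 11 and 19, which are rich in GC and genes. It lay 2.18% and 1.27% below expectation in the libraries from serum and 7.01% and 11.02% above it in those from 2i, a log2 difference of 0.15 ± 0.016 (SE, n = 2 per condition; quasi-likelihood test of edgeR, Benjamini-Hochberg, adjusted p = 0.00279). With the replicate block it was not called (edgeR, Benjamini-Hochberg adjusted p = 0.0660), nor without serum replicate 1 (0.102) or with the estimated dispersion (0.0895). Chromosomes 9 and 19, also GC-rich, lay 2.59% and 1.39% below expectation in the libraries from serum and 0.806% and 2.12% above it in those from 2i (same test of edgeR, Benjamini-Hochberg adjusted p = 0.0434). Chromosome 19 with chromosome 5 lay 3.41% and 2.49% below expectation in the libraries from serum and 0.405% and 0.335% below in those from 2i (Benjamini-Hochberg adjusted p = 0.0434, edgeR). TMM on raw counts takes no expected counts, so its differences also hold changes in each chromosome's trans total and are another measure. It gave 27.1% with 11, 16.1% with 9 and 12.7% with 5, where the main fit gave 10.9, 3.50 and 2.65%. In both 2i libraries chromosome 19 met these 3 GC-rich partners more, relative to expectation, than in either serum library. These partners were named because their pairs with 19 were called. The pairs of 19 with 7 and 17, also GC-rich, were not called changed (for 17, edgeR, Benjamini-Hochberg adjusted p = 0.0997).

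The largest fall was between chromosomes 14 and 19, a GC-poor and a GC-rich chromosome. The pair lay 1.20% and 1.71% above expectation in the libraries from serum and 6.26% and 6.07% below it in those from 2i, a log2 difference of -0.11 ± 0.011 (SE, n = 2 per condition; quasi-likelihood test of edgeR, Benjamini-Hochberg, adjusted p = 0.00261). It was also called under 15 of 16 other settings, TMM on raw counts being the exception. Chromosomes 8 and 19 lay 1.50% and 1.18% below expectation in the libraries from serum and 6.58% and 4.10% below in those from 2i (same test of edgeR, Benjamini-Hochberg adjusted p = 0.0434), a difference of -4.08% that TMM put at -0.603%. Chromosome 14 was called higher in 2i with chromosomes 1 and 12, poor in genes, and with chromosome 2, rich in them. With chromosome 1 it lay 0.0582% and 0.227% above expectation in the libraries from serum and 2.40% and 3.76% above in those from 2i, and with chromosome 12 3.18% and 2.46% below expectation in the libraries from serum and 0.635% and 0.0230% below in those from 2i. With chromosome 2 the log2 difference was 0.025 ± 0.0060 (SE, n = 2 per condition; quasi-likelihood test of edgeR, Benjamini-Hochberg adjusted p = 0.0434). With TMM on raw counts, which takes no expected counts, these differences turned negative and were not called: 2i lay -4.35% from serum for the pair with 1, -3.36% with 2 and -4.64% with 12. With products of totals, the pairs with 2 and 12 were no longer called. With the other gene-poor partners, chromosome 14 was not called: the log2 difference was 0.028 ± 0.0090 with 3, 0.012 ± 0.0081 with 13, -0.00059 ± 0.013 with 16 and -0.023 ± 0.012 with 18 (SE).

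Of the other falls, chromosomes 8 and 17 lay 3.56% and 2.15% above expectation in the libraries from serum and 1.14% and 0.367% below it in those from 2i, chromosomes 14 and 15 1.89% and 1.84% above expectation in the libraries from serum and 0.909% and 1.51% below it in those from 2i, and chromosomes 3 and 11 3.02% and 2.04% below expectation in the libraries from serum and 4.41% and 6.03% below in those from 2i. With TMM on raw counts the differences of 2i from serum were -1.93, -9.65 and 0.979%, where the main fit gave -3.50, -3.02 and -2.76%. In these 3 pairs the conditions did not overlap in observed over expected, and their Benjamini-Hochberg adjusted p in edgeR was 0.0329, 0.0332 and 0.0434. In all, 23 pairs lay on opposite sides of expectation in the 2 conditions in all 4 libraries, of which 8 were called changed. The pairs named above as highest and lowest in all libraries were not among those called changed.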

How the data were processed

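Hi-C read pairs of 4 libraries were mapped to mm9 by the authors with the distiller pipeline. The authors deposited counts of unique read pairs per pair of chromosomes, not normalized; the study's methods say that pairs of low mapping quality were left out, without saying whether the counts per chromosome pair were taken after that step. Columns holding sums of both replicates of a condition were not used. Chromosome length, GC content and gene density came from NCBIM37 and its GENCODE annotation.

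Expected counts were fitted iteratively in each library so that each autosome kept its trans total over 171 autosome pairs, of which 161 are described. Counts were tested in edgeR 4.0.16 (glmQLFit and glmQLFTest, R 4.3.3) with the log of the expected counts as offset, for the mean of both conditions against 0 and for 2i minus serum, with Benjamini-Hochberg adjustment over 171 pairs. A pair called above or below also had to lie on that side in all 4 libraries. Every pair had at least 10 counts. The dispersion was fixed at 0.0002, a chosen value above the 5.51e-05 found by moments over the pairs. This departs from a first fit, in which edgeR estimated it and which was replaced after its counts of called pairs had been seen: at the estimated dispersion the deviance edgeR computed had a median of 11364 over pairs, against 0.411 by the exact formula, and at the fixed dispersion both were 0.207. The first fit called 35 of the chosen pairs above, 60 below and 1 changed. Steps were tested on simulated data.

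For single values per library, conditions were compared by exact permutation (two-sided) of the 4 libraries, with 0.333 as the smallest p. Correlations over pairs are descriptions. Alternatives were limma 3.58.1, DESeq2 1.42.0, other expected counts, other dispersions, the replicate number as a block, other class sizes and each library left out. Python 3.11.15, numpy 2.4.6, pandas 2.3.3 and scipy 1.17.1 were used.

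Pairs named were the 6 highest and 6 lowest in the mean of the libraries among those on one side in all 4, up to 5 called changed in each direction, other pairs of chromosome 14 and other called pairs that changed side or turned sign, the 6 pairs of Hox chromosomes, the extreme partners of a chromosome described, and the 3 farthest above and below the linear description. Chromosomes were named from the 6 at each end of length, GC content and gene density and the 3 largest loadings of each sign. The members and lists were chosen with earlier results of these data known.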

Additional observations from a re-analysis of the deposited data

Results flagged for a closer look

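Pairs that lay on one side of expectation in both serum libraries and on the other in both 2i libraries, and that were called changed, are given with their log2 difference of 2i from serum. Below expectation in serum and above in 2i were chromosomes 11 and 19 (0.15), chromosomes 9 and 19 (0.050), chromosomes 7 and 11 (0.035) and chromosomes 7 and 15 (0.028). Above in serum and below in 2i were chromosomes 14 and 19 (-0.11), chromosomes 8 and 17 (-0.051), chromosomes 14 and 15 (-0.044) and chromosomes 9 and 14 (-0.030). The Benjamini-Hochberg adjusted p in the quasi-likelihood test of edgeR was 0.00261 to 0.0466. With the replicate number as a block, and with the dispersion edgeR estimates, 1 of the 16 called pairs was called, that of chromosomes 14 and 19.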

How the results depend on the processing

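The pairs called above or below expectation did not all keep their side in every library when the expected counts were made otherwise. Of the 42 above, 36 did with expected counts over the chosen pairs alone, 35 with products of totals and 42 over all chromosome pairs. Of the 62 below, 47, 54 and 57 did in that order. The counts of pairs above (42) and below expectation (62) stayed within 1.5 times of these values under every alternative run. The count changed in 2i (16) did not: it was 30 with expected counts over the chosen pairs alone, 27 over all chromosome pairs with X and Y, 25 with DESeq2, 36 with TMM on raw counts (31 higher and 5 lower, against 8 and 8), and 1 to 12 with a library left out, where the lone library of a condition is assumed to vary like the other condition. It was 1 with the estimated dispersion of the first fit. Among dispersions chosen after seeing the data, as the main one was, it was 16 with a dispersion of 0.001 and 10 with 0. TMM takes no expected counts, and with it 6 of the called changes turned sign: chromosomes 1 and 14 (-4.35%), 2 and 14 (-3.36%), 12 and 14 (-4.64%), 3 and 11 (0.979%), 5 and 12 (1.19%) and 10 and 11 (2.40%).

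With the replicate block, 40 pairs were above, 60 below and 1 changed; the labels number the replicates without saying that equal numbers share a culture, and deviations of equal numbers correlated at -0.124 over the pairs. The crossed pairing, added after seeing the data, gave 43, 62 and 52.

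With 5 or 9 chromosomes at each end, the gene density contrast (2.87%) was 3.91 and 1.44%, the length contrast (2.85%) 4.80 and 1.43%, and the difference of the length contrast between 2i and serum (-0.307 percentage points) turned to 0.966 and 0.587. The same difference was 3.37 and 1.28 for the GC contrast (2.82) and 2.51 and 0.911 for the gene density contrast (1.64). With expected counts as products of totals, the SD over pairs (0.039) was 0.047, and r with likeness was 0.266 for GC content (0.341) and 0.228 for gene density (0.287). With likeness as minus the absolute difference, r was 0.203 for GC content, 0.244 for gene density and 0.418 for length (0.500), which was 0.381 with expected counts over the chosen pairs. All annotated genes gave 0.183 for gene density, with a difference in r of 0.0395 between 2i and serum (0.169), and CpG density, added after seeing the data, 0.437 in place of GC content. With minus the absolute difference, the differences in r between 2i and serum were 0.152 for GC content (0.233) and 0.108 for gene density. The difference in r for length between 2i and serum (-0.0117) was 0.00879 with expected counts over the chosen pairs.

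With expected counts over the chosen pairs, over all chromosome pairs and as products, the pairs with 1 of 12, 15, 16, 18 and 19 (-1.20%) averaged 0.0464, -0.920 and -2.45%, and the Hox pairs (0.123%) -0.134, 0.566 and 1.25%. With a library left out, values reached -0.0119 to 0.257% for the Hox pairs, -0.745 to 0.131 for the change of the length contrast, -0.0456 to 0.0222 for that of r with length, 1.07 to 2.20 for that of the gene density contrast and 0.00329 to 0.0132 for that of the SD over pairs (0.00826), the extremes of the last being without 2i replicate 2 and without 2i replicate 1. Causes were not tested. Counts for whole chromosomes hold no position, and 2 libraries per condition limit every comparison of conditions.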
